A study of Mus musculus with 8 samples.

Results

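Txnip, its arrestin relatives Arrdc3 and Arrdc4, the glucose-sensing transcription factor genes Mlx, Mlxip and Mlxipl, and the thioredoxin genes Txn1 and Txnrd1 were followed in MC38 cells, a mouse colon adenocarcinoma line that the labels call epithelial. These 8 genes were chosen by symbol out of 29079 genes in the count table, with earlier results from the same libraries known and with no threshold recorded. Their values are therefore a description, and the adjusted p-values, taken over all tested genes, place each difference against the spread between libraries without being independent evidence. The 4 groups were Piezo2 knockout cells (KO), made with 1 CRISPR guide named Piezo2-gRNA1, that received 1 X-ray fraction of 30 Gy; KO cells left non-irradiated; control cells (WT), which carried a CRISPR control, that received the same dose; and WT cells left non-irradiated. RNA was taken 60 hours after the dose. Each group had 2 libraries. No label says whether they came from separate cultures or whether the KO line is 1 clone, so the spread behind every p-value is that between these libraries and may be technical.

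Txnip encodes the thioredoxin-interacting protein, an alpha-arrestin that binds and inhibits reduced thioredoxin and that lowers glucose uptake by promoting the internalisation of glucose transporters. Its gene is a textbook target of glucose sensing. MondoA (encoded by Mlxip) or ChREBP (encoded by Mlxipl) pairs with Mlx, and the pair binds a carbohydrate response element when glucose 6-phosphate accumulates. Arrdc4 is the other arrestin gene known to answer to the same factors. Thioredoxin, encoded by Txn1, reduces disulphides in other proteins and is kept reduced by the selenoprotein thioredoxin reductase, encoded by Txnrd1.

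Total counts ran from 11 to 19.9 M per library, and 14923 genes had enough reads to be tested. Piezo2 itself had 7 and 12 reads in irradiated KO, 0 and 1 in non-irradiated KO, 3 and 9 in irradiated WT, and 0 and 0 in non-irradiated WT, too few reads for a check of the deletion. Of 8 colon epithelial markers 5 had a row in the count table and 3 were tested. Epcam, Krt20 and Cdx2 had no row under these symbols. Cdh1, which encodes E-cadherin, averaged 39.8 to 78.1 CPM (reads per M counts, scaled by TMM library factors) in the 4 groups, but the keratin Krt18 had no more than 2 reads, Vil1 no more than 9 and Krt8 no more than 20 in any library. Krt19 had 3 and 8 reads in irradiated KO, 1 and 2 in non-irradiated KO, 11 and 28 in irradiated WT and 24 and 14 in non-irradiated WT. T and NK cell markers summed to no more than 0.513 CPM.

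Txnip (ENSMUSG00000038393, chromosome 3, 96557957 to 96561883, plus strand, mm10) rose after irradiation in both lines. It had 244.8 and 267 CPM in irradiated KO, against 19.95 and 20.43 CPM in non-irradiated KO. It had 221.5 and 253.7 CPM in irradiated WT, against 6.57 and 5.2 CPM in non-irradiated WT, on 78 to 4684 reads per library over the 8 libraries. The irradiated libraries of both lines lay far above every non-irradiated library, and the lowest irradiated value was more than 10 times the highest non-irradiated one. The log2 rise was 3.66 ± 0.12 in KO, a 12.7-fold change (SE, 2 libraries per group, edgeR adjusted p = 1.13e-06), and 5.33 ± 0.14 in WT, a 40.2-fold change (edgeR adjusted p = 2.79e-06). Among 14923 genes, Txnip ranked 34th by p-value in KO and 2nd in WT, and 439th and 145th by size of the log2 rise.

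Before irradiation the lines already differed in Txnip. Non-irradiated KO averaged 20.19 ± 0.341 CPM and non-irradiated WT 5.885 ± 0.969 CPM (SD, n = 2 each), a log2 difference of 1.77 ± 0.14 or 3.42-fold (edgeR adjusted p = 0.000209), with no overlap of libraries. After irradiation KO averaged 255.9 ± 15.7 CPM and WT 237.6 ± 22.8 CPM. These libraries overlapped, and the log2 difference of 0.11 ± 0.10 had a 95% interval from -0.13 to 0.35 (edgeR adjusted p = 0.512, 0.0505 with the replicate number as a block). The irradiation effect was thus smaller in KO than in WT on the log2 scale, by -1.67 ± 0.17 (95% interval -2.07 to -1.27, edgeR adjusted p = 0.00336 for the interaction). In CPM, which add rather than multiply, the mean rose by 235.7 in KO and by 231.7 in WT.

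Gm15441, an antisense gene, shares 606 exon bases with Txnip. It had 5 and 8 reads in irradiated KO, 2 and 3 in non-irradiated KO, 5 and 1 in irradiated WT and 0 and 0 in non-irradiated WT. How the counting treated strand is unknown here, so reads from the shared bases cannot be assigned to a strand. Some markers of other cell types moved with the same contrasts, and others did not. Macrophage markers, 3 of 7 of them tested and all 3 higher in both lines, summed to 54.8 to 63.8 CPM in irradiated KO, against 7.23 to 7.96 CPM in non-irradiated KO, and to 37.1 to 39.3 CPM in irradiated WT, against 3.77 to 3.87 CPM in non-irradiated WT. Most of that was the lysosomal gene Cd68, while C1qa had no more than 1 read and Tyrobp and Adgre1 no more than 2 in any library. Fibroblast markers, 4 of 6 tested, summed to 1390 to 1520 CPM in irradiated KO, 1010 to 1060 in non-irradiated KO, 954 to 1050 in irradiated WT and 779 to 843 in non-irradiated WT, nearly all of it Col1a2, and Lum had no more than 1 read. Dcn, the fibroblast marker that encodes decorin, had 61.88 and 54.21 CPM in irradiated KO, 9.608 and 8.06 in non-irradiated KO, 40.15 and 36.21 in irradiated WT, and 1.886 and 1.6 in non-irradiated WT. Its 4 groups did not overlap and stood in the same order as the Txnip group means. Pdgfra, another fibroblast marker, had a different order, averaging 41.12 CPM in irradiated KO and 51.25 in non-irradiated KO. It averaged 43.56 CPM in irradiated WT and 24.62 in non-irradiated WT. After irradiation 3 fibroblast markers were called higher and 1 lower in KO, and 3 higher and 0 lower in WT. Of all tested genes 21.1% were higher and 18.6% lower in KO, and 20.4% and 18.4% in WT. Endothelial markers, 3 of 4 tested, summed to 11 to 13 CPM in irradiated KO and 7.75 to 8.88 in non-irradiated KO. In WT they summed to 4.97 to 6.79 CPM after irradiation and 1.76 to 2 without. Tek averaged 6.464 CPM in irradiated KO, 6.231 in non-irradiated KO, 0.5508 in irradiated WT and 0.1521 in non-irradiated WT. Pecam1 averaged 4.443, 1.985, 4.926 and 1.633 CPM in the same order. Kdr had no more than 5 reads and Cdh5 no more than 17 in any library. The part of these in the Txnip result was not tested. In bulk RNA, a change in the share of cells and a change in RNA per cell cannot be told apart.

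**Figure D1:**
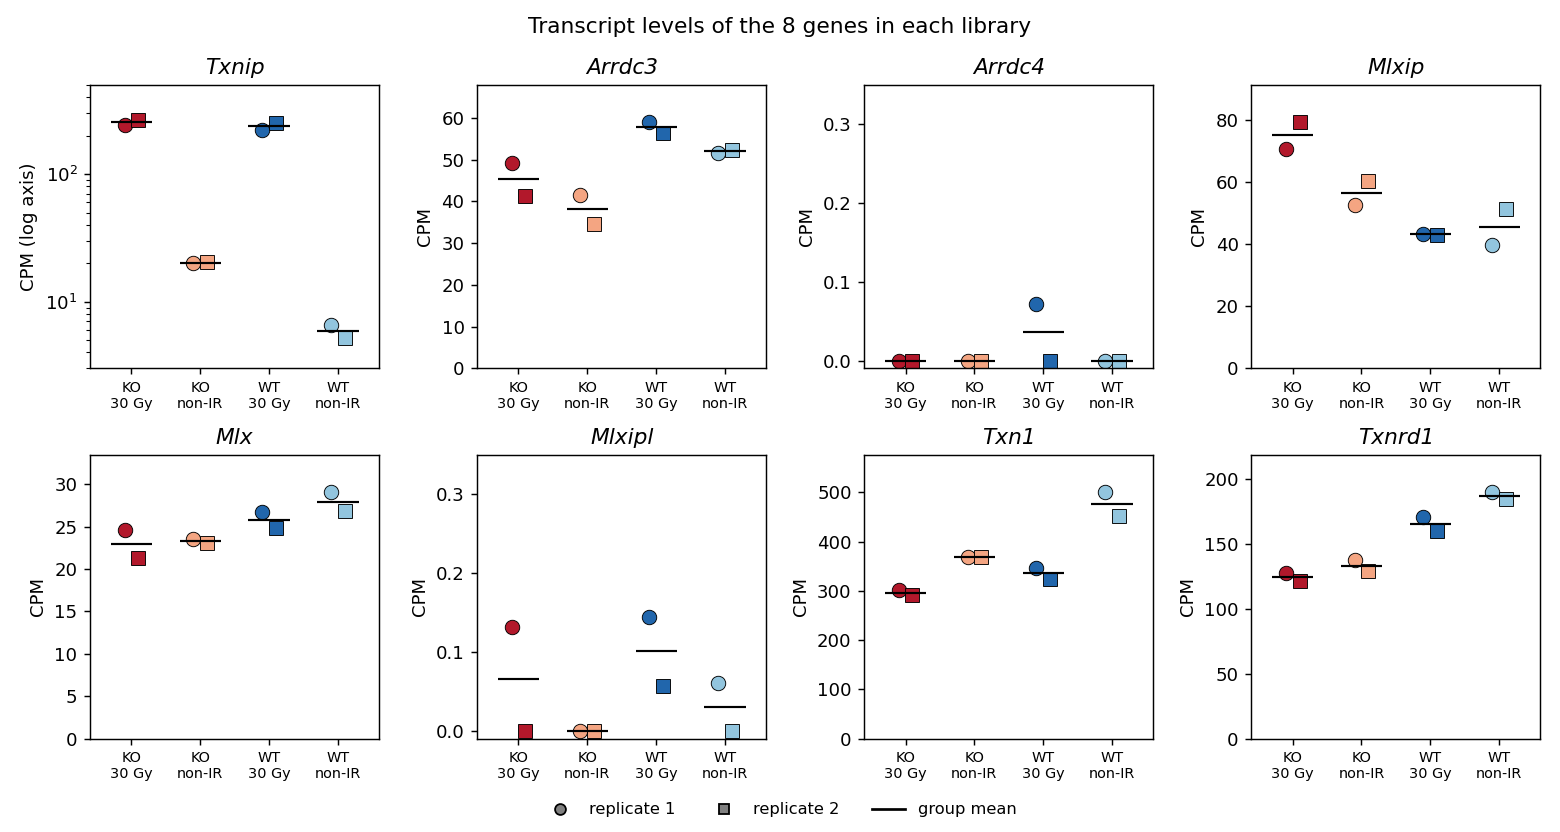
Levels of the 8 genes in CPM, by group (KO and WT, 30 Gy and non-irradiated), with circles for replicate 1, squares for replicate 2 and lines for group means; the Txnip axis is logarithmic. Txnip sits between 221.5 and 267 CPM in all 4 irradiated libraries and between 5.2 and 20.43 CPM in the others, and Arrdc4 is at 0 in all but 1 library.

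Arrdc4 was at or near 0 reads in every library. This arrestin gene (ENSMUSG00000042659, chromosome 7, 68736995 to 68749241, minus strand) had 1 read in 126.1 M counts over all 8 libraries, in irradiated WT replicate 1. The other 7 libraries had 0 reads, which allows up to 0.154 to 0.275 CPM depending on the library, counting error only. No rise of Arrdc4 with Txnip was detectable at this depth, and the gene fell below the count filter, so it was not tested.

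The stretches before both start sites are shown because Txnip and Arrdc4 are both known targets of MondoA, and here one was abundant after irradiation while the other was barely detected. They are the 250 bases upstream, RefSeq, GRCm38.p6, written in the direction of the gene, at chr3:96557707-96557956 (plus strand) for Txnip and chr7:68749239-68749488 (minus strand) for Arrdc4. Capitals mark matches to a carbohydrate response element in a single spelling, or to the E box CACGTG, on either strand. The spelling was CACGNG 2 times in the same direction with any 5 bases between, and is the element meant below.
Txnip: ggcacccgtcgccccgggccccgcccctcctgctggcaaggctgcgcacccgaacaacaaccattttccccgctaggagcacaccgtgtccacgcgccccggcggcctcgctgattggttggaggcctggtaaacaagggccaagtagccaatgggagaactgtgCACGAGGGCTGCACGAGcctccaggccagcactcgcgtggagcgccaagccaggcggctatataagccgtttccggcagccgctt
Arrdc4: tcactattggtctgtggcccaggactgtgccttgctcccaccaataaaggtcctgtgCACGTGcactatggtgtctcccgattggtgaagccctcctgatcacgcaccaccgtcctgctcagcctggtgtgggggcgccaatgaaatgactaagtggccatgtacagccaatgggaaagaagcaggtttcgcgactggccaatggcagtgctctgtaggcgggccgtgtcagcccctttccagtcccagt

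Txnip held the element once, starting at -85 from its start site, and Arrdc4 held an E box starting at -193 and no match to the longer element in this window. A window of 300 bases, reaching past the start site, was searched for every RefSeq promoter, and all 8 genes had at least 1 of the 13 windows. The element was in 16 of 32851 windows (0.0487%) and the E box in 7.15%. Among the 8 genes the element was found in Txnip alone, and E boxes in Arrdc4, Mlx and 1 of the windows of Mlxipl. A match is a description of the letters, not of binding. Of 15 genes with the element 11 were tested. Without Txnip, 2 were higher and 1 lower of 10 after irradiation in KO, and 3 higher and 1 lower in WT, where 21.1% and 18.6% of all tested genes in KO and 20.4% and 18.4% in WT were. Counts this near those shares are no result about these genes, which had median log2 changes of 0.41 and 0.17 against 0.02 and 0.03 over all tested genes. Fnip1, whose product binds folliculin and AMPK, rose by 0.93 ± 0.14 in KO and 0.94 ± 0.14 in WT (edgeR adjusted p = 0.0015 and 0.00153), and A430005L14Rik fell by 0.85 in KO and 0.62 in WT (0.00151 and 0.0061). Nfkb2, which encodes an NF-kappaB subunit, stood at 0.53 ± 0.13 in KO and 0.42 ± 0.13 in WT after irradiation (0.0125 and 0.0303). Stpg4 stood at 3.25 ± 1.09 in WT (0.0482), an imprecise value, since the median SE of genes called there was 0.122. These calls did not survive leaving out some libraries. For Nfkb2 they were lost without non-irradiated KO replicate 1 or irradiated KO replicate 2 (adjusted p = 0.0825 and 0.0819), and without either irradiated WT library (0.0504 and 0.158) or the first non-irradiated one of WT (0.18). For Stpg4 they were lost without non-irradiated WT replicate 1 or any irradiated library (0.0613 to 0.161). Between the lines 2 of the 10 were lower in KO under each treatment and 0 higher, namely Nfkb2 (-0.67 ± 0.13 after irradiation and -0.78 ± 0.13 without, adjusted p = 0.00735 and 0.0052) and Fem1b (-0.35 ± 0.06 and -0.30 ± 0.06, 0.00687 and 0.0171). Of all tested genes 11.4% were lower and 13.3% higher after irradiation, and 9.49% and 10.4% without. After irradiation, the Nfkb2 call was lost without irradiated KO replicate 1 (0.0572), and the Fem1b call without either irradiated KO library (0.0517 and 0.0515). Without irradiation, the Fem1b call was lost without any 1 of the 4 non-irradiated libraries (0.067 to 0.1). The genes with the element were named for their calls, after their values were seen.

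The remaining arrestin member, Arrdc3 (ENSMUSG00000074794, chromosome 13, 80883384 to 80896042, plus strand), encodes an adaptor that links beta-adrenergic receptors to ubiquitin ligases. It had 49.22 and 41.39 CPM in irradiated KO, against 41.64 and 34.6 CPM in non-irradiated KO. In WT it had 59.04 and 56.45 CPM after irradiation, against 51.71 and 52.2 CPM without. All KO libraries lay below all WT libraries, the irradiated and non-irradiated KO libraries overlapped, and those of WT did not. The irradiation difference was 0.25 ± 0.12 on the log2 scale in KO (edgeR adjusted p = 0.132, 0.00463 with the block) and 0.15 ± 0.12 in WT (0.347). KO was lower than WT without irradiation, by -0.45 ± 0.12 (edgeR adjusted p = 0.0349), and stood at -0.35 ± 0.12 after it (0.067, 8.47e-05 with the block). The non-irradiated call was lost without either non-irradiated WT library (adjusted p = 0.119 and 0.122), either irradiated WT library (0.0554 and 0.0637) or non-irradiated KO replicate 2 (-0.31, 0.173).

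Per kb of exon, the order of the arrestin genes changed around Txnip. Txnip averaged 81.9 CPM per kb in irradiated KO and 76.1 in irradiated WT, above every other arrestin gene, and 6.46 in non-irradiated KO, which is within the range of Arrdc3 in the same group (5.52 to 6.64). In non-irradiated WT it averaged 1.88 CPM per kb, below Arrdc3 at 8.29. The ratio of Txnip to Arrdc3 was 9.98 and 12.9 in irradiated KO, 0.961 and 1.18 in non-irradiated KO, 7.53 and 9.02 in irradiated WT, and 0.255 and 0.2 in non-irradiated WT.

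**Figure D2:**
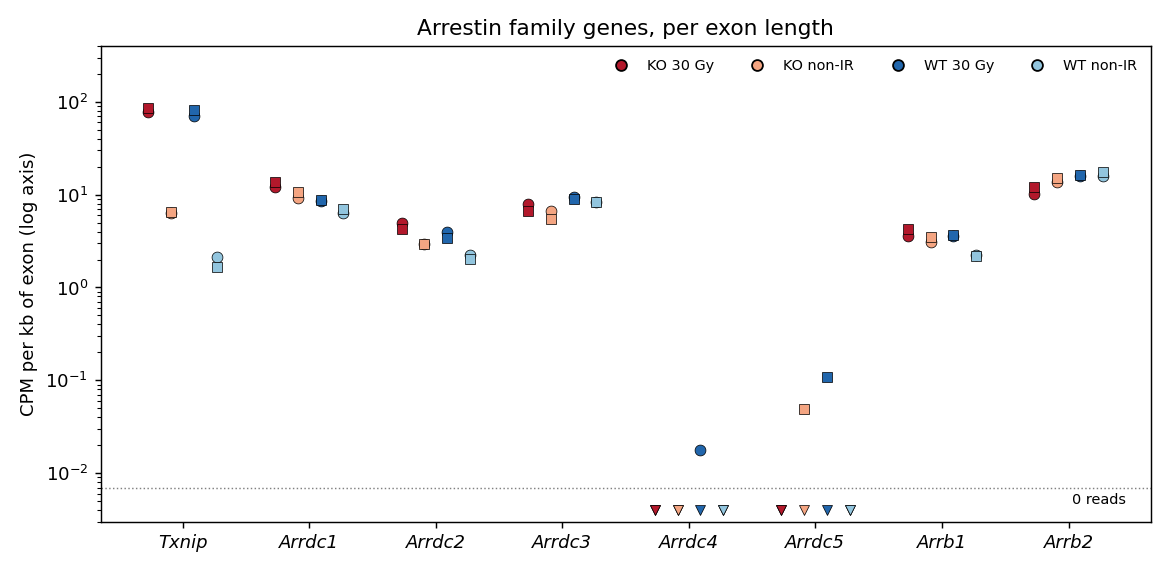
CPM per kb of exon, on a log axis, of Txnip, the other alpha-arrestins Arrdc1 to Arrdc5 and the beta-arrestins Arrb1 and Arrb2, 1 symbol per library (circle replicate 1, square replicate 2), coloured by group; triangles below the dotted line are libraries with 0 reads. Txnip spans 1.67 to 85.5 CPM per kb, while Arrdc3 stays between 5.52 and 9.42 and Arrdc4 has 1 library above 0.

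Of 5 other arrestin genes 4 were tested, and Arrdc5 had no more than 2 reads in any library. After irradiation 2 were higher and 1 lower in KO (3 and 1 with the block) and 3 higher and 0 lower in WT, where all tested genes gave 21.1% higher and 18.6% lower in KO and 20.4% and 18.4% in WT. Between the lines 1 was higher and 1 lower in KO after irradiation (2 and 1 with the block), and 2 and 0 without it (3 and 1 with the block), with 13.3% and 11.4% of all tested genes after irradiation and 10.4% and 9.49% without. Arrdc2 rose by 0.79 ± 0.15 in WT (edgeR adjusted p = 0.00586) and by 0.64 ± 0.15 in KO (0.013). The beta-arrestin Arrb1 rose by 0.72 ± 0.11 in WT (0.00194), stood at 0.24 ± 0.11 in KO (0.116, 0.0107 with the block), and was higher in KO than in WT without irradiation, by 0.59 ± 0.11 (0.00935). Arrdc1 was higher in KO than in WT, by 0.58 ± 0.12 after irradiation (0.0128) and 0.59 ± 0.13 without (0.0161), and its irradiation differences of 0.37 in KO and 0.38 in WT only just passed (0.0473 and 0.0475). The beta-arrestin Arrb2 stood at -0.37 ± 0.11 after irradiation in KO (0.0325) and was lower in KO than in WT after irradiation, by -0.53 ± 0.11 (0.0127).

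Both rises in WT of Arrdc2 and Arrb1 held without any 1 library, and the other arrestin calls did not. The Arrdc2 call in KO was lost without either non-irradiated KO library (adjusted p = 0.0549 and 0.062) or irradiated KO replicate 1 (0.0856), and the Arrb1 difference without non-irradiated WT replicate 2 (0.0601) or non-irradiated KO replicate 2 (0.06). The Arrdc1 difference after irradiation was lost without either irradiated WT library (0.0723 and 0.0614) or irradiated KO replicate 2 (0.0813). The one without irradiation was lost without either non-irradiated WT library (0.1 and 0.0517) or non-irradiated KO replicate 2 (0.0954). The Arrdc1 irradiation calls were lost without any 1 of the 8 libraries (0.0503 to 0.291), without a count filter (0.0677 in KO and 0.0541 in WT) and with DESeq2 (0.152 and 0.145). The Arrb2 difference was lost without either irradiated WT library (0.0567 and 0.055) or irradiated KO replicate 1 (0.0889). Its irradiation call was lost without either non-irradiated KO library (0.0517 and 0.159) or irradiated KO replicate 1 (0.189), and with DESeq2 (0.0635).

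Of the genes for the glucose-sensing factors, Mlxip was well measured and Mlxipl was near 0. Mlxipl (ENSMUSG00000005373, chromosome 5, 135089890 to 135138382, plus strand), which encodes ChREBP, the factor of liver and fat, had 6 reads in all. They were 2 and 0 in irradiated KO, 0 and 0 in non-irradiated KO, 2 and 1 in irradiated WT and 1 and 0 in non-irradiated WT. No fold is given between such counts, and the gene was not tested.

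Mlxip (ENSMUSG00000038342, chromosome 5, 123394798 to 123457932, plus strand), which encodes MondoA, was higher in KO. It had 70.67 and 79.41 CPM in irradiated KO, against 43.25 and 43.05 CPM in irradiated WT, and 52.62 and 60.27 CPM in non-irradiated KO, against 39.79 and 51.34 CPM in non-irradiated WT. No KO library overlapped a WT library of the same treatment, although the non-irradiated lines came close. The log2 difference of KO from WT was 0.80 ± 0.13 after irradiation, or 1.74-fold (edgeR adjusted p = 0.00458), and 0.31 ± 0.14 without it (0.149, 0.000477 with the block). Irradiation raised Mlxip in KO by 0.41 ± 0.13 (edgeR adjusted p = 0.0428) and left it at -0.08 ± 0.14 in WT (0.698), where the libraries overlapped. The call in KO was lost without any 1 of 6 libraries, namely both irradiated WT and all 4 KO libraries, with log2 values of 0.3 to 0.5 and adjusted p of 0.0662 to 0.233. The difference between those effects was 0.49 ± 0.19 (interaction, edgeR adjusted p = 0.35, 0.000474 with the block). The antisense gene Gm15747, which shares 267 exon bases with it, had 2 reads in 1 library and 0 in the others.

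Their shared partner Mlx (ENSMUSG00000017801, chromosome 11, 101087277 to 101092207, plus strand) moved little. It had 24.54 and 21.32 CPM in irradiated KO and 23.52 and 23.05 CPM in non-irradiated KO, and 26.67 and 24.8 CPM in irradiated WT and 29.08 and 26.8 CPM in non-irradiated WT. Every KO library lay below every WT library. No comparison of Mlx passed the threshold. The largest difference was -0.26 ± 0.11 between KO and WT without irradiation (95% interval -0.51 to -0.02, edgeR adjusted p = 0.126, 0.0286 with the block), and irradiation differences were -0.02 in KO and -0.12 in WT. Its values are uncertain, because it shares 385 exon bases with Psmc3ip on the other strand, which had 12.6 to 26.3 CPM. Psmc3ip was itself lower in KO than in WT, by -0.49 ± 0.13 after irradiation and -0.56 ± 0.13 without (edgeR adjusted p = 0.0312 and 0.0211), the direction of the Mlx difference, and its part in the Mlx counts was not tested. Per kb of exon, Mlxip stood at 0.691 and 0.894 times Mlx in irradiated KO, 0.537 and 0.628 times in non-irradiated KO, 0.389 and 0.417 times in irradiated WT, and 0.328 and 0.46 times in non-irradiated WT.

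Thioredoxin moved opposite to Txnip. Txn1 (ENSMUSG00000028367, chromosome 4, 57943373 to 57956411, minus strand) was the most abundant member and had 301.2 and 290.7 CPM in irradiated KO, against 368.4 and 368.4 CPM in non-irradiated KO. It had 346.2 and 324.3 CPM in irradiated WT, against 500.6 and 451.7 CPM in non-irradiated WT. The irradiated libraries lay below the non-irradiated ones in both lines, and KO lay below WT under both treatments. Txn1 fell by 0.32 on the log2 scale in KO (SE 0.08, edgeR adjusted p = 0.0172) and by 0.51 in WT (SE 0.08, 0.00232). KO against WT differed by -0.37 ± 0.08 without irradiation (0.017) and by -0.18 ± 0.08 after it (0.15, 0.000404 with the block), and the interaction was 0.19 ± 0.11 (0.586, 0.021 with the block). The call in KO was lost without any 1 of the 4 KO libraries (-0.34 to -0.32, adjusted p = 0.0588 to 0.0855). The non-irradiated difference lost its call without non-irradiated WT replicate 1 (0.111) or either non-irradiated KO library (0.0838 and 0.0787).

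Txnrd1 (ENSMUSG00000020250, chromosome 10, 82833951 to 82897712, plus strand) differed more between the lines than with the dose. It had 128 and 121.1 CPM in irradiated KO, against 171.1 and 160 CPM in irradiated WT, and 137.6 and 128.9 CPM in non-irradiated KO, against 190.1 and 184.7 CPM in non-irradiated WT. Every KO library lay below every WT library. KO was lower by -0.41 ± 0.08 after irradiation (edgeR adjusted p = 0.00677) and by -0.49 ± 0.08 without it (0.00406). The first of these was -0.35 without irradiated WT replicate 1 (adjusted p = 0.0526) and -0.36 without irradiated KO replicate 2 (0.0729). Irradiation differences were -0.10 ± 0.08 in KO (0.35) and -0.18 ± 0.07 in WT (0.0945, 0.000571 with the block). The irradiated libraries lay below the non-irradiated ones in each line, narrowly in KO.

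Set per kb of exon against Txn1, the Txnip transcript stood at 27.3 and 30.9% of the Txn1 level in irradiated KO and at 1.82 and 1.87% in non-irradiated KO. In WT it stood at 21.5 and 26.3% after irradiation and at 0.442 and 0.387% without. Txnrd1 stood at 6.3 and 6.18% of the Txn1 level in irradiated KO, against 5.54 and 5.19% in non-irradiated KO, and at 7.33 and 7.32% in irradiated WT, against 5.63 and 6.07% in non-irradiated WT. The irradiated libraries lay above the non-irradiated ones in each line, without overlap. These are transcript levels and do not give protein ratios.

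Counted over the members, 3 of 8 were called after irradiation in KO, where 39.7% of all tested genes were called (Txnip and Mlxip higher, Txn1 lower), and 2 of 8 in WT, where 38.9% were (Txnip higher, Txn1 lower). Between the lines, 2 of 8 were called after irradiation (Mlxip higher, Txnrd1 lower in KO), with 24.6% of all genes (13.3% higher, 11.4% lower), and 4 of 8 without it (Txnip higher, Arrdc3, Txn1 and Txnrd1 lower in KO), with 19.9% (10.4% higher, 9.49% lower). The interaction called 1 of 8, Txnip, on the lower side, with 1.94% of all genes (1.37% higher, 0.57% lower). With the replicate block the counts were 4, 3, 4, 6 and 3 in the same order. Arrdc4 and Mlxipl are counted as not called because they were not tested, and nothing is read from these shares since the list was made with these comparisons known.

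**Figure D3:**
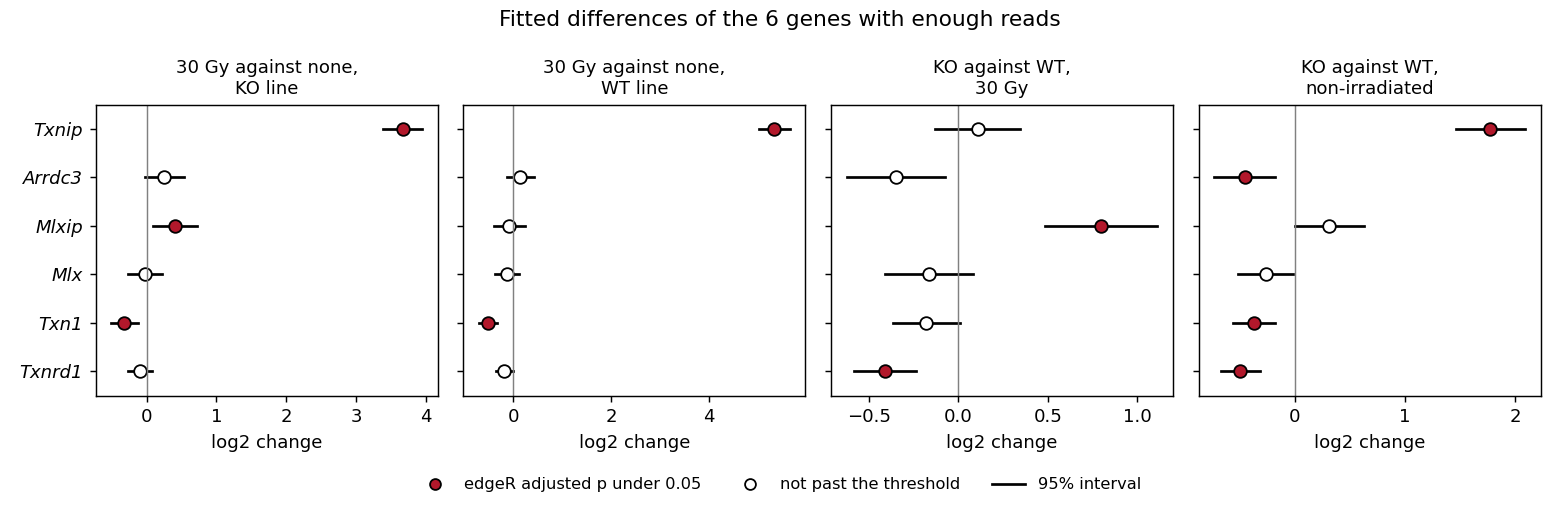
Fitted log2 differences (points) with 95% intervals (lines) of the 6 tested genes in 4 comparisons; filled points passed an edgeR adjusted p of 0.05, and the horizontal scales differ between panels. Txnip stands at 3.66 in KO and 5.33 in WT after irradiation and at 1.77 between the non-irradiated lines, against 0.11 between the irradiated ones.

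Other genes of the network around Mlx were called in both directions. Of 10 listed partners and competitors of Max and Mlx 8 were tested. After irradiation 2 were higher and 2 lower in KO (5 and 3 with the block), and 4 higher and 2 lower in WT, where all tested genes gave 21.1% higher and 18.6% lower in KO and 20.4% and 18.4% in WT. Mxd4, a transcriptional repressor that pairs with Max, rose by 0.83 ± 0.07 in KO and by 1.67 ± 0.08 in WT (edgeR adjusted p = 0.000137 and 1.26e-05). It was higher in KO than in WT, by 0.45 ± 0.07 after irradiation and 1.29 ± 0.08 without (0.00395 and 9.35e-05). Mxd4 averaged 89.8 CPM in irradiated KO against 50.7 CPM in non-irradiated KO, and 65.8 CPM in irradiated WT against 20.7 CPM in non-irradiated WT. Mxd1, of the same family, rose by 0.85 ± 0.15 in KO and 1.03 ± 0.15 in WT (0.00328 and 0.00157). Mnt, a repressor that can pair with Max or Mlx, rose by 1.17 ± 0.23 in WT (0.00522) and stood at 0.26 ± 0.22 in KO (0.397, 0.000534 with the block). Myc fell by 1.27 in KO and by 0.55 in WT (0.000335 and 0.0135), and was lower in KO than in WT after irradiation, by -0.86 ± 0.14 (0.0034). Its call in WT was lost once irradiated WT replicate 1 (-0.46, adjusted p = 0.0775) or replicate 2 of the non-irradiated WT libraries (-0.48, 0.072) was left out. Between the lines 1 was higher and 2 lower in KO after irradiation (2 and 3 with the block), and 3 and 0 without it (6 and 2 with the block). Of all tested genes 13.3% were higher and 11.4% lower after irradiation, and 10.4% and 9.49% without.

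Reported targets of ChREBP or MondoA other than Txnip and Arrdc4 were called in both directions. Of 18 listed 12 were tested, with 2 higher and 6 lower after irradiation in KO (4 and 7 with the block) and 2 higher and 5 lower in WT (3 and 6 with the block). Over all tested genes 21.1% were higher and 18.6% lower in KO, and 20.4% and 18.4% in WT. The median log2 changes of the 12 were -0.34 in KO and -0.18 in WT, against 0.02 and 0.03 over all tested genes. Acacb, the mitochondria-associated acetyl-CoA carboxylase, was the largest rise, by 2.29 ± 0.16 in KO and 1.44 ± 0.16 in WT (edgeR adjusted p = 4.39e-05 and 0.000454). It was higher in KO than in WT after irradiation, by 0.74 ± 0.15 (0.0102), a call lost without irradiated WT replicate 1 (0.0716) or irradiated KO replicate 2 (0.0685). The fatty acid elongase Elovl6 fell by 1.49 in KO and 0.91 in WT (7.79e-06 and 0.000122) and was higher in KO than in WT without irradiation, by 0.57 ± 0.07 (0.00203). Rgs16, a regulator of G protein signalling, fell by 1.31 in KO and 2.07 in WT (0.000635 and 0.000112), and Mid1ip1, which activates acetyl-CoA carboxylase, by 1.09 and 0.83 (0.00204 and 0.00706). Rgs16 was higher in KO than in WT after irradiation, by 0.64 ± 0.17 (0.0294), a call lost without either irradiated KO library (0.0781 and 0.136), irradiated WT replicate 2 (0.42, 0.171) or non-irradiated WT replicate 1 (0.0522). Between the lines 3 were higher and 2 lower in KO after irradiation (4 and 4 with the block), and 3 and 2 without it (6 and 2 with the block). The shares over all tested genes were 13.3% and 11.4% after irradiation, and 10.4% and 9.49% without.

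Genes of glucose entry and use were called in both directions. Of 22 listed genes 17 were tested, with 2 higher and 6 lower after irradiation in KO (3 and 8 with the block) and 1 higher and 6 lower in WT (7 and 7 with the block). Over all tested genes 21.1% were higher and 18.6% lower in KO, and 20.4% and 18.4% in WT. Slc2a1, the glucose transporter GLUT1 that the Txnip protein removes from the cell surface, had 53.7 CPM in irradiated KO, against 120.3 CPM in non-irradiated KO, and 47.5 CPM in irradiated WT, against 104.2 CPM in non-irradiated WT, a fall by 1.16 and 1.13 on the log2 scale (edgeR adjusted p = 2.1e-05 and 4e-05). Hexokinase 2, Hk2, which forms glucose 6-phosphate, fell by 0.62 in KO and 0.86 in WT (0.000861 and 0.000217), and Rpia, of the pentose phosphate pathway, fell by 1.08 in KO and 0.75 in WT (0.00283 and 0.0149). The Rpia call in WT was lost without irradiated WT replicate 2 (0.0905) or replicate 1 of the non-irradiated WT libraries (0.0761). Slc2a6, a transporter-like gene of the same family, rose by 1.04 ± 0.18 in KO and 1.33 ± 0.18 in WT (0.00298 and 0.000975). Between the lines 1 was higher and 0 lower in KO after irradiation (10 and 3 with the block), and 4 and 1 without it (8 and 1 with the block). Of all tested genes 13.3% were higher and 11.4% lower after irradiation, and 10.4% and 9.49% without.

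The rest of the thioredoxin system fell more often than it rose. All 23 listed genes were tested, with 2 higher and 11 lower after irradiation in KO (6 and 12 with the block) and 4 higher and 9 lower in WT (5 and 13 with the block), against shares over all tested genes of 21.1% and 18.6% in KO and 20.4% and 18.4% in WT. The mitochondrial reductase Txnrd2 fell by 1.05 in KO and 1.03 in WT (edgeR adjusted p = 0.00139 and 0.0014), and the reductase Txnrd3 by 0.98 and 0.82 (0.000209 and 0.000499). Txnrd2 was also lower in KO than in WT, by -0.62 ± 0.15 after irradiation and -0.60 ± 0.15 without (0.0221 and 0.025). These calls were lost without any 1 of the 4 libraries compared (0.061 to 0.119 after irradiation and 0.0742 to 0.135 without), without a count filter (0.055 and 0.0635) and with DESeq2 (0.113 and 0.107). Prdx3, a mitochondrial peroxidase fed by thioredoxin, fell by 0.85 in KO and 0.89 in WT (0.0215 and 0.018). The Prdx3 calls were lost without non-irradiated KO replicate 1 or irradiated KO replicate 2 (adjusted p = 0.111 and 0.116), and in WT without replicate 1 of the non-irradiated or replicate 2 of the irradiated libraries (0.0981 and 0.102). The glutaredoxin Glrx2 was higher in KO than in WT after irradiation, by 0.89 ± 0.10 (0.000868), and fell by 0.49 after irradiation in WT (0.00836), a call lost without irradiated WT replicate 2 (0.0617). Between the lines 3 were higher and 2 lower in KO after irradiation (4 and 8 with the block), and 3 and 3 without it (5 and 8 with the block). These stand against 13.3% higher and 11.4% lower of all tested genes after irradiation, and 10.4% and 9.49% without.

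NRF2, encoded by Nfe2l2, drives Txnrd1 and other antioxidant genes. Of 15 genes, all tested and with Srxn1 also among the thioredoxin genes, 5 were higher and 3 lower after irradiation in KO (8 and 4 with the block) and 5 and 5 in WT. The shares over all tested genes were 21.1% higher and 18.6% lower in KO, and 20.4% and 18.4% in WT. Nfe2l2 rose by 0.36 ± 0.07 in KO and 0.77 ± 0.07 in WT (edgeR adjusted p = 0.00664 and 0.000198) and was lower in KO than in WT, by -0.99 ± 0.07 after irradiation and -0.58 ± 0.07 without (9.3e-05 and 0.00186). Txnrd1 had the same direction between the lines but did not rise after irradiation, at -0.10 in KO and -0.18 in WT. A link between Nfe2l2 and Txnrd1 was not tested. Hmox1, heme oxygenase 1, ran opposite to Nfe2l2 between the lines, higher in KO by 1.13 ± 0.10 and 0.99 ± 0.11 (0.000263 and 0.00102), and it rose with irradiation by 1.33 ± 0.10 in KO and 1.19 ± 0.11 in WT (7.2e-05 and 0.00019). The glutathione transferase Gstm1 rose by 1.13 ± 0.12 and 1.76 ± 0.12 (0.000355 and 5.93e-05) and was lower in KO than in WT after irradiation, by -0.71 ± 0.12 (0.00425). Ferritin heavy chain Fth1, which has near-identical pseudogenes and is uncertain, rose by 1.18 ± 0.09 in KO and 1.11 ± 0.09 in WT (5.6e-05 and 9.58e-05). Between the lines 2 were higher and 4 lower in KO after irradiation (4 and 8 with the block), and 1 and 5 without it (4 and 9 with the block). All tested genes gave 13.3% higher and 11.4% lower after irradiation, and 10.4% and 9.49% without.

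Among 12 genes for protein partners of the alpha-arrestins 11 were tested, with 2 higher and 3 lower after irradiation in each line (2 and 6 in KO and 3 and 6 in WT with the block). Over all tested genes 21.1% were higher and 18.6% lower in KO, and 20.4% and 18.4% in WT. Nothing is read from counts this small. Nedd4l, a ubiquitin ligase of the family that binds alpha-arrestins, rose by 0.82 ± 0.07 in KO and 0.49 ± 0.07 in WT (edgeR adjusted p = 8.98e-05 and 0.00132) and was higher in KO than in WT, by 1.21 ± 0.07 after irradiation and 0.87 ± 0.07 without (2.85e-05 and 0.00024). The related ligase Wwp1 fell by 0.97 and 0.82 (3.59e-05 and 0.000113). Map3k5, the stress kinase ASK1 that thioredoxin holds inactive, fell by 1.09 in KO and 0.77 in WT (0.000518 and 0.00245). It was lower in KO than in WT after irradiation, by -0.56 ± 0.13 (0.0173), a call lost without either irradiated WT library (0.0559 and 0.0892) or irradiated KO replicate 2 (-0.38, 0.108). The receptor gene Gpr161 was higher in KO after irradiation, by 0.79 ± 0.13 (0.00403), and fell by 0.49 after irradiation in WT (0.0203), a call lost without either irradiated WT library (0.0618 and 0.0981) or non-irradiated WT replicate 2 (0.116), and with DESeq2 (0.0522). Between the lines 3 were higher and 1 lower in KO after irradiation (4 and 5 with the block), and 3 and 0 without it (4 and 2 with the block). The shares over all tested genes were 13.3% and 11.4% after irradiation, and 10.4% and 9.49% without. Nlrp3, the inflammasome sensor reported to bind Txnip, had too few reads to test.

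The AMPK list, the energy sensor whose kinase can mark the Txnip protein for degradation, had 0 higher and 2 lower of 8 tested after irradiation in KO (0 and 3 with the block) and 0 and 1 in WT (1 and 1 with the block). Among all tested genes 21.1% were higher and 18.6% lower in KO, and 20.4% and 18.4% in WT. Counts this small are no result about these genes. Between the lines 1 was higher and 0 lower in KO after irradiation (2 and 1 with the block), and 0 and 0 without it (1 and 2 with the block). All tested genes gave 13.3% higher and 11.4% lower after irradiation, and 10.4% and 9.49% without. Prkaa2, a catalytic subunit, fell by 0.66 in KO and 1.02 in WT (edgeR adjusted p = 0.00468 and 0.000754), and Prkag2, a regulatory subunit, fell by 0.44 in KO (0.0212), a call lost without non-irradiated KO replicate 2 (0.0955) or irradiated KO replicate 2 (0.106) and with DESeq2 (0.0773). Prkaa2 was higher in KO than in WT after irradiation, by 0.43 ± 0.13 (0.0447), a call lost without any 1 of the 8 libraries (0.0595 to 0.269), with library totals alone (0.0529), without a count filter (0.126) and with DESeq2 (0.196).

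**Figure D4:**
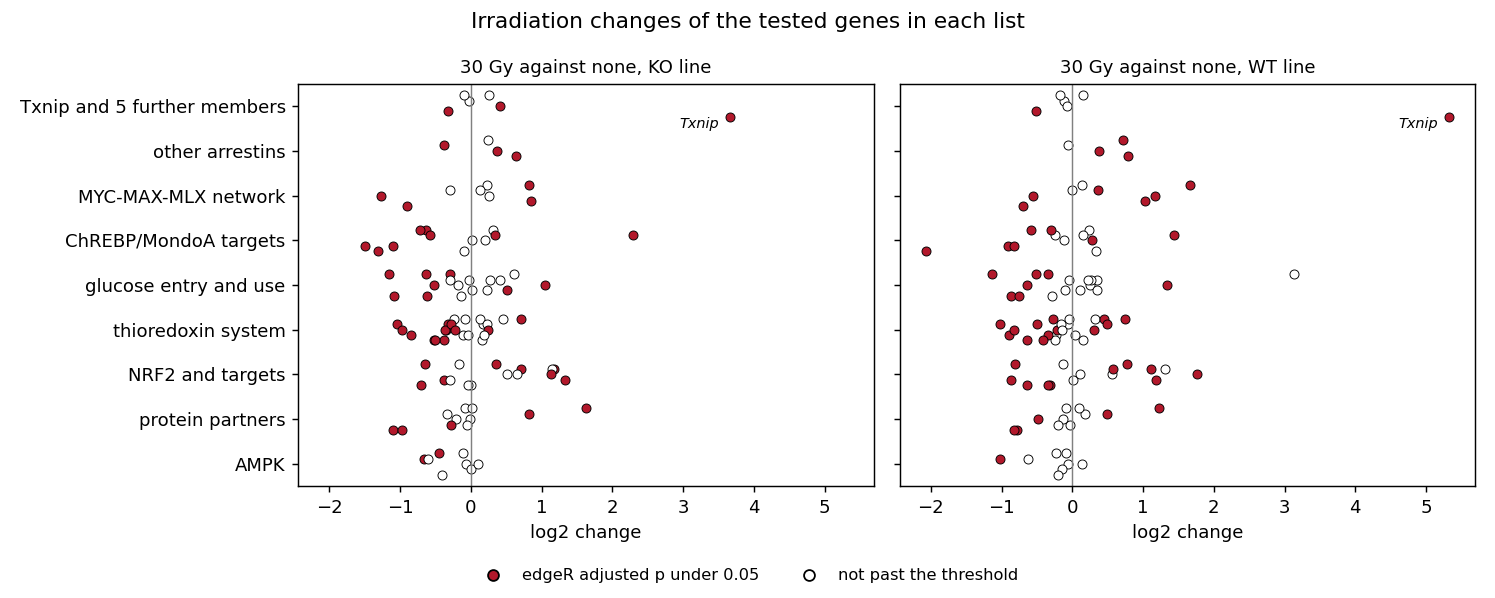
Log2 change after irradiation in KO (left) and WT (right) of each tested gene, 1 point per gene, by list, with filled points past an edgeR adjusted p of 0.05. Txnip, at 3.66 and 5.33, lies to the right of every other point in both panels.

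The genes whose log2 CPM ran most like Txnip over the 8 libraries, among 11038 genes with at least 5 CPM in their highest group, were Plat, Cdh1, Fcgrt, 4930486L24Rik, Sqstm1, Gpr153, Gm13212, Ctns, Lgals2 and Vps41, with Pearson r between 0.9925 and 0.9977, a description with no test. Plat, which encodes tissue plasminogen activator, averaged 27.1 CPM in irradiated KO, 8.8 in non-irradiated KO, 24.7 in irradiated WT and 4.44 in non-irradiated WT. Sqstm1, the autophagy receptor p62, averaged 991, 590, 992 and 498 CPM in the same order. The genes that ran most opposite were S100a6, Rab7b, Pck2, Cdca7l and Nle1, with r between -0.9976 and -0.9951. S100a6, a calcium-binding protein gene, averaged 717 CPM in irradiated KO, 1620 in non-irradiated KO, 763 in irradiated WT and 2270 in non-irradiated WT, and Pck2, the mitochondrial phosphoenolpyruvate carboxykinase, 82.2, 161, 88 and 215 CPM in that order.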

How the data were processed

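RNA of 8 MC38 libraries in 4 groups of 2 was sequenced. The authors deposited raw read counts, 1 whole number per Ensembl gene and library. HISAT2, HISAT, HTSeq and DESeq2 are named, without version or role, and the build is mm10, per the submitters' processing notes. Neither the strand setting nor the annotation release is known here. Positions and exon lengths came from GENCODE M21, which placed 28915 of 29079 gene IDs.

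In R 4.3.3, edgeR 4.0.16 tested the 14923 genes that passed filterByExpr (minimum count 10, minimum total 15), which hold 99.86 to 99.93% of the counts. TMM factors were 0.975 to 1.023, and CPM use them. One coefficient was fitted per group over all libraries, leaving 4 residual degrees of freedom. Differences were tested with the two-sided quasi-likelihood F test, Benjamini-Hochberg adjusted over all tested genes, and called under 0.05. Every "adjusted p" is this value unless another tool is named, and SE derives from the F statistic. A count of 0 was taken to allow 3 counts, for counting error only. Members and gene lists were chosen with earlier results of these data known.

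Named list genes were up to 4 per list with the largest called change at 5 CPM or more. Replicate numbers, which the labels give without a meaning, pair the libraries: differences between replicates 1 and 2 correlated at 0.564 to 0.611 between all groups, over genes. A fit with the number as a block is given where it changes a call or moves a count by over 1.5 times. Other alternatives were DESeq2 1.42.0, other scalings, no filter and leaving out each library.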

Additional observations from a re-analysis of the deposited data

Results flagged for a closer look

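The irradiation effect differed between the lines for 3 of the genes named, by the interaction test with edgeR. For Txnip, irradiation in KO minus irradiation in WT was -1.67 ± 0.17 (adjusted p = 0.00336), with 20.19 CPM in non-irradiated KO against 5.885 CPM in non-irradiated WT and overlapping irradiated libraries. For Mxd4 it was -0.84 ± 0.11 (adjusted p = 0.00819, 0.0542 without irradiated KO replicate 1). For Elovl6 it was -0.58 ± 0.11 (adjusted p = 0.0394, and 0.0917 to 0.198 without any 1 library).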

How the results depend on the processing

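The replicate block, which uses the pairing of libraries by replicate number, raised the genes called to 8986 after irradiation in KO, 9034 in WT, 7516 between the irradiated lines, 6701 between the non-irradiated lines and 2492 for the interaction, against 5927, 5798, 3678, 2971 and 290 without it. It called 4 of the 8 members between the irradiated lines and 3 for the interaction, against 2 and 1. With no filter on low counts the interaction called 578 genes. The share of higher calls in the interaction was 70.7%, against 48.8% with the block. Leaving out 1 library at a time, the genes called ran from 3904 to 5743 after irradiation in KO, 3846 to 5728 in WT, 1960 to 3463 between the irradiated lines, 1508 to 2548 between the non-irradiated lines and 120 to 155 for the interaction. In the same order the members called ran from 1 to 3, 2 to 2, 1 to 2, 2 to 4 and 1 to 1. Txnip kept its calls after irradiation in both lines, between the non-irradiated lines and for the interaction under all 13 alternatives. Signs turned only where no call was made. Mlx after irradiation in KO was 0.01 with library totals alone and ran from -0.12 to 0.05 over the left-out libraries, Mlxip in WT from -0.26 to 0.11, and the Arrdc3 interaction from -0.03 (-0.02 without irradiated KO replicate 1) to 0.23. Of 390 member values under an alternative, 356 kept direction and side of the threshold, 20 lost a call, 9 gained one and 5 turned sign. Of 90 calls of other named genes, 29 were lost under at least 1 alternative and none turned sign. Library totals alone moved the median of all genes to 0.05 after irradiation in KO and 0.09 in WT. Arrdc4, Mlxipl and Piezo2 have too few reads to compare.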
